A study of Mus musculus with 55 samples.

Results

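Binding of p300 in mouse bone marrow-derived macrophages 6 h after lipopolysaccharide (LPS) was set against binding after vehicle, over 97113 windows of 200 bp centred on regions of open chromatin. The comparison used 4 of the 14 p300 ChIP-seq libraries whose columns could be matched to a sample, in a series of 55 samples: replicates 1 and 2 of cells given 10 ng/ml LPS for 6 h, and replicate 2 of the PBS2 and PBS6 vehicle cells, which were pooled as 1 vehicle group of 2 libraries. Both vehicle libraries are of replicate 2, the labels do not give their hours of vehicle, and replicate 1 vehicle libraries were not used here. All cells were differentiated with macrophage colony-stimulating factor, kept overnight in 0.5% serum before treatment and crosslinked with disuccinimidyl glutarate and formaldehyde. The series names C57BL/6J mice as the source, and the labels name no genetic change in either group. The strain and the p300 antibodies are given for replicate 1 of the LPS cells, while the labels of the other 3 libraries give cell type and treatment alone. The p300 fit also held libraries of cells given LPS for 2 h, or 3'-sialyllactose (3'SL), a milk oligosaccharide, for 2 or 6 h. The 3'SL was given at 100 ug/ml, alone or with LPS. These libraries entered the scaling, the filter on tags and the estimate of the spread.

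LPS is a component of the outer membrane of Gram-negative bacteria that macrophages sense through the receptor TLR4. This leads to activation of the transcription factors NF-kB and AP-1, of IRF factors and, through type I interferon, of STAT factors. p300 is a histone acetyltransferase without sequence-specific DNA binding of its own. It is brought to enhancers and promoters by transcription factors, where it acetylates lysine 27 of histone H3 (H3K27ac), and its presence is a widely used mark of active enhancers.

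The open regions were those that the authors merged from published maps of vehicle-treated macrophages and macrophages given Kdo2-lipid A, the TLR4-activating part of LPS, so regions opened by TLR4 were included by construction. LPS replicate 1 had 13557960 tags, of which 6.12% fell in the windows, and LPS replicate 2 had 6375343, with 20.9% in the windows. The PBS2 library had 3199270 tags and the PBS6 library 7106052, with 21.8% and 20.1% in the windows, and the input library had 4.77%. In this share LPS replicate 1 stood closer to the input than the other 3 libraries did. Over all p300 libraries the share was 6.12% to 9.42% in replicate 1 and 20.1% to 27.5% in replicate 2. It thus went with the replicate number, and vehicle had replicate 2 alone. Levels are given as normalised tags, which are tags per window scaled by the tags in all windows and by a trimmed-mean (TMM) factor, and the number of tags recovered in each library limits their precision. Between replicates, the chi-square of recovered tags per degree of freedom was 9.92 for LPS and 2.79 for vehicle, so the 2 libraries of each group differed by more than sampling noise. In the other groups, each made of replicates 1 and 2, it was between 8.34 and 12.7, and vehicle was the 1 group with both libraries of the same replicate number. The labels do not say that replicates came from separate mice, so the p-values measure the spread between these libraries.

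Of 8 macrophage markers, all 8 had p300 regions within 100 kb, with summed levels of 4469 and 3333 normalised tags after LPS and 3311 and 3130 in vehicle, and none passed the test; with the replicate number as a block in the fit, Mertk, a receptor for apoptotic cells, was lower (limma, adjusted p = 0.0345). Of 7 neutrophil markers, 1 was called higher, the granulocyte colony-stimulating factor receptor gene Csf3r, and the sums were 651 and 530 normalised tags after LPS against 193 and 191 in vehicle. Csf3r alone had 566 and 432 normalised tags after LPS, against 118 and 140 in PBS2 and PBS6 (log2 change 1.93; limma, adjusted p = 0.0181), and Retnlg and Elane had log2 changes of -0.55 and -0.23 that did not pass. The defining neutrophil gene Ly6g held 11.2 and 2.43 normalised tags after LPS and none in vehicle. The B cell genes Cd79a and Pax5, the T cell genes Cd3e and Cd3g and the NK cell gene Ncr1 had no open region in the table. A share of neutrophils in the cultures was not tested as a source of any result.

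The sequences of 12 of the 25 regions named here are printed, chosen after their values were seen. They show gains and losses among the greatest near genes of known function, and 1 region each near the genes of the microRNAs miR-21 and miR-223. They were read from the plus strand of the RefSeq genome GRCm38.p6, the build of the deposited coordinates (mm10), and capitals mark matches to the 7 motifs searched on both strands. The motifs were TGANTCA for AP-1, GGGNNNTTC for NF-kB, TTGCNNAA for C/EBP, GAAANNGAA for IRF, TTCNNNGAA for STAT, GAGGAAGT for PU.1 and TGACGTCA for CREB/ATF, where N is any base and overlapping matches were counted. A match describes letters in the window and is not evidence of a bound site.
Socs3, 8627 bp upstream, chr11:117977893-117978093: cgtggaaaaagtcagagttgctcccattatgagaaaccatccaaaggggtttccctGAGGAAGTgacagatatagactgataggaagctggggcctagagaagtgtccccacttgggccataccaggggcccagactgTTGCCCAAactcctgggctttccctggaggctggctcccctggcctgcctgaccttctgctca
Bcl2a1a, intron, chr9:88960018-88960218: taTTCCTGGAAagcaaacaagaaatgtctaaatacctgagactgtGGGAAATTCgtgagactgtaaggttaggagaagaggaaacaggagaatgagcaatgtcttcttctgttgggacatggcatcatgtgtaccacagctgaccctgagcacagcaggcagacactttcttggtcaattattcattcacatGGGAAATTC
Thg1l, 11592 bp upstream, chr11:45966995-45967195: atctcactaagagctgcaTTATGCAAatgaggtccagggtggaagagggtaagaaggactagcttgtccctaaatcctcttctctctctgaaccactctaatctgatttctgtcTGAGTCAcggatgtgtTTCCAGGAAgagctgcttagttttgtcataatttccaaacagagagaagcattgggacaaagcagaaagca
Fpr1, 1101 bp upstream, chr17:17884940-17885140: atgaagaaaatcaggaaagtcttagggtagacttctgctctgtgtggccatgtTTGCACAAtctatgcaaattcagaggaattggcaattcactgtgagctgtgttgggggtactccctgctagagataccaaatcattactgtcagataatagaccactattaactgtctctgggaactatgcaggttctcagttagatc
Ell2, intron, chr13:75754432-75754632: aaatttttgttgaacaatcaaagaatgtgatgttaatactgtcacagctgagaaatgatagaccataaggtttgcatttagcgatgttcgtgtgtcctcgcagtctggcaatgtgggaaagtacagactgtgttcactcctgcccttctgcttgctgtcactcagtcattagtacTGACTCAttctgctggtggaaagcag
Edn1, 56807 bp upstream, chr13:42244569-42244769: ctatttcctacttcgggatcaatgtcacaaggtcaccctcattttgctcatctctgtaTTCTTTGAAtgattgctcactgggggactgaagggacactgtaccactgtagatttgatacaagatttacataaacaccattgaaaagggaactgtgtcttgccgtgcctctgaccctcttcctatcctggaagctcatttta
Lmo4, 63524 bp downstream, chr3:144138708-144138908: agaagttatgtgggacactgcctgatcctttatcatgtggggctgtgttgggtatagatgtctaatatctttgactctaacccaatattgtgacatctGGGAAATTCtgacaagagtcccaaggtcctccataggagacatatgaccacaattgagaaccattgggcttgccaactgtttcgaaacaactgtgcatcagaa
Mir21a, 40557 bp upstream, chr11:86624615-86624815: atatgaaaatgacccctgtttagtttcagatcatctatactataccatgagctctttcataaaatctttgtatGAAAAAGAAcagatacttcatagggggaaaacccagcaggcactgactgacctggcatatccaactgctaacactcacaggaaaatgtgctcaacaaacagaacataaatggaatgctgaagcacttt
Gpr34, 57713 bp upstream, chrX:13574956-13575156: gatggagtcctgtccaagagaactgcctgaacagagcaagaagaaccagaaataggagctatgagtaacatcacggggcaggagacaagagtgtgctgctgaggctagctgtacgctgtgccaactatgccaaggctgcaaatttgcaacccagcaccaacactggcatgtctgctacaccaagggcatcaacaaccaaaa
Slco2b1, intron, chr7:99674914-99675114: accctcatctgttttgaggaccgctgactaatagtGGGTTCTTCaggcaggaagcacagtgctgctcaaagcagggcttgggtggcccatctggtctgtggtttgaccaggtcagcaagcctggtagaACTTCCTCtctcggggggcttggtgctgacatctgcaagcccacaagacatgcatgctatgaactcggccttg
Hpgd, intron, chr8:56313659-56313859: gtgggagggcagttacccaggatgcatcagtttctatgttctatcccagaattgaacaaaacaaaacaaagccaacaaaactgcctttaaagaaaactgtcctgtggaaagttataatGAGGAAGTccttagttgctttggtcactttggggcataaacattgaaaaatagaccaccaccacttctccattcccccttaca
F630028O10Rik, 12722 bp upstream, chrX:96227104-96227304: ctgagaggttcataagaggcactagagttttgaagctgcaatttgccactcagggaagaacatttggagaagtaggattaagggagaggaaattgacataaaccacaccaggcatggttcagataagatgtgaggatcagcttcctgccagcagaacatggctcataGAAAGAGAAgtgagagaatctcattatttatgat

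The Bcl2a1a window held the NF-kB letters GGGAAATTC at 2 places, and the Lmo4 window held the same 9 letters once. The Thg1l window held 1 match each to AP-1, C/EBP and STAT. The Socs3 window held 1 PU.1 and 1 C/EBP match, and the Fpr1 window 1 C/EBP match. The Edn1 window held 1 STAT match, and the Gpr34 window held none of the letters searched. The Hpgd window held PU.1 alone, and the Slco2b1 window held PU.1 and NF-kB. The upstream Mir21a window and the F630028O10Rik window each held 1 IRF match.

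p300 rose at 1138 regions and fell at 256 after 6 h of LPS, of 52527 regions with enough tags to test; the other 44586 windows of the table had fewer tags. These are 2.17% and 0.487% of the regions tested, by limma on log2(normalised tags + 1) with a Benjamini-Hochberg adjusted p under 0.05 and no threshold on size. The median log2 change was 3.73 among the regions called higher, -3.06 among those called lower and 0.03 over all regions tested. In 193 of the 1138 higher regions, 17.0%, neither vehicle library had a tag, against 1.69% of all regions tested, while both LPS libraries were empty in 14 of the 256 lower regions, 5.47%, against 0.276% of all. The 4 libraries did not overlap in any region called; over all regions tested, both LPS libraries lay above both vehicle libraries in 25.9% and below them in 22.5%. More p300 per cell and p300 in more of the cells cannot be told apart in such libraries. With the replicate number as a block, a fit in which the gap between replicates is estimated from the other groups because vehicle had replicate 2 alone, 2714 regions (5.17%) were called higher and 1134 (2.16%) lower, and all 1394 calls were among them. With LPS replicate 1, LPS replicate 2, PBS2 or PBS6 left out, the 1394 calls became 390, 490, 306 and 827. The authors' scaling to all tags of a library keeps the low share of replicate 1 libraries in the windows. On it the median log2 change of all regions was -0.97. It called 2 regions, both higher: those of Alpk2 and Lmo4.

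**Figure D1:**
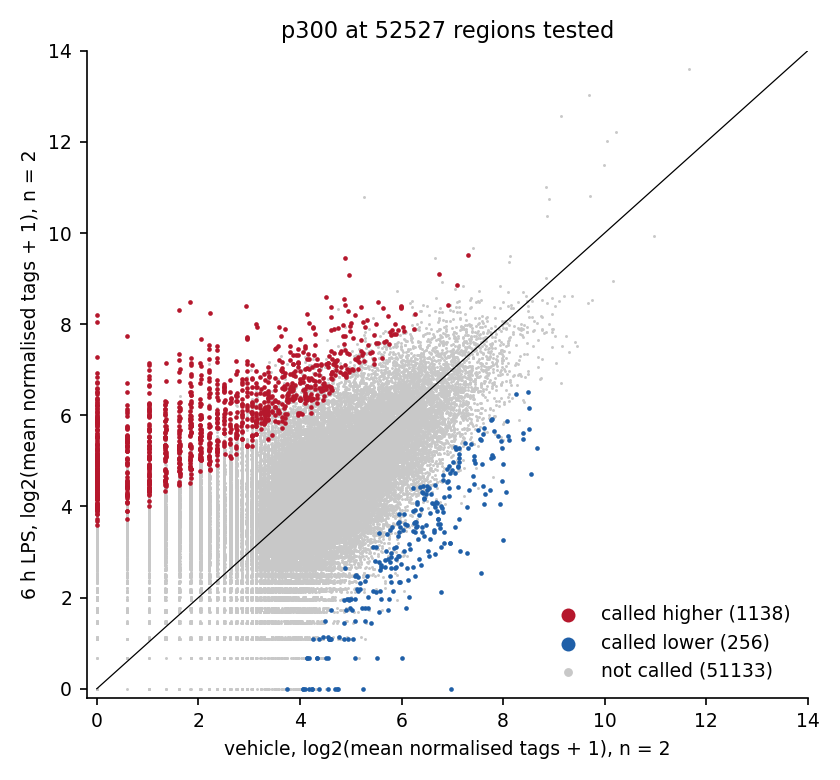
Mean p300 level at each of the 52527 regions tested after 6 h LPS (vertical axis) and in vehicle (horizontal axis), both as log2(mean normalised tags + 1) over 2 libraries; the line marks equal levels. Red points are the 1138 regions called higher, many of them near 0 in vehicle, blue points are the 256 called lower, and grey points are not called.

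The regions called higher and lower were distributed over many genes. The regions called higher had 812 genes as the nearest, those called lower had 203, and 12 genes were nearest to both kinds. The following genes, named after their counts were seen, had several regions called. Over all regions tested, 2.17% were called higher and 0.487% lower. The regions tested per gene are given where they were counted, within 100 kb of the start. 4930529L06Rik had the most higher regions, 10, and Zc3h12c had 9. Tnfaip3, which encodes the ubiquitin-editing NF-kB inhibitor A20, had 8 higher regions of 29 tested, and Socs3 had 7 of 16. Pla2g4a, the gene of cytosolic phospholipase A2, had 7 higher regions. Pde4b, which encodes a cyclic AMP phosphodiesterase, had 6, and the interleukin gene Il1a had 5 of 6 tested. Among falls, Atp6v0d2, a subunit gene of the vacuolar proton pump, had 6 lower regions, and Cxcr4, the receptor gene of the chemokine CXCL12, had 5. Nfkb1, which encodes the p105/p50 subunit of NF-kB, had 4 higher regions and 1 lower region, and the transcription factor gene Foxp1 had 2 higher and 3 lower.

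The greatest gains lay mostly at distal regions that were empty or nearly empty in vehicle. The intergenic region 8627 bp upstream of Socs3, a feedback inhibitor of JAK-STAT signalling by cytokine receptors, had 382 and 335 normalised tags in the LPS libraries of replicates 1 and 2, against 0 in PBS2 and 5.16 in PBS6. Its log2 change was 7.17 ± 0.81 (SE; limma, adjusted p = 0.000312). The region 1101 bp upstream of Fpr1, a receptor for formylated bacterial peptides, had 257 and 378 normalised tags after LPS, against 0 in PBS2 and 4.13 in PBS6, a log2 change of 7.11 ± 0.81 (SE; limma, adjusted p = 0.000318). In both regions the LPS libraries lay close together and far above either vehicle library.

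A second region of the same locus, 13172 bp downstream of the start of the related receptor gene Fpr2, was among the most strongly bound of those called higher. It had 317 and 449.9 normalised tags after LPS, against 14.7 in PBS2 and 28.9 in PBS6, with a log2 change of 4.13 ± 0.53 (SE; limma, adjusted p = 0.000527). Fpr2 was the nearest gene of 5 higher regions in all.

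At 7 of the 10 regions with the greatest log2 change, both vehicle libraries had no tag, so each fold is a lower bound set against 3 tags over the vehicle group. The region in the intron of Bcl2a1a, an anti-apoptotic Bcl-2 family gene, had 103 and 106 normalised tags after LPS, at least 50.4-fold higher than vehicle (limma, adjusted p = 0.000185). Bcl2a1a has near-identical paralogs in the mouse, so the reads of this region may be shared with them. The intronic Ell2 region, in the gene of an RNA polymerase II elongation factor, had 121 and 108 normalised tags after LPS, at least 54.1-fold higher (adjusted p = 0.000211 by limma).

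The region 56807 bp upstream of Edn1, which encodes the vasoconstrictor peptide endothelin-1, had 93.9 and 115 normalised tags after LPS and was at least 51.9-fold higher (adjusted p = 0.000312 by limma). The region 11592 bp upstream of Thg1l, a tRNA-histidine guanylyltransferase gene, had 69.3 and 171 normalised tags after LPS, at least 65.1-fold higher (adjusted p = 0.000185 by limma). At the last of these, replicate 2 was the higher LPS library, and at Ell2 and Edn1 the replicates lay close together.

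The other 3 empty regions were higher in LPS replicate 1 than in replicate 2. The intronic Alpk2 region, in an alpha-kinase gene, had 431 and 155 normalised tags after LPS, at least 122-fold higher. The region 63524 bp downstream of the start of Lmo4, a LIM-domain transcriptional cofactor, had 359.9 and 166, at least 113-fold higher. The region 47849 bp from the predicted gene Gm10636 had 230.3 and 80.0, at least 64.0-fold higher. The tenth region, nearest to the predicted gene Gm19395 and inside an intron of Cep85l, had 190.0 and 234 normalised tags after LPS, against 0 in PBS2 and 1.03, a single tag, in PBS6. Its ratio of 316 has a 95% counting interval of 56.2 to 12516, which covers counting error only, as do all such intervals and limits here.

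**Figure D2:**
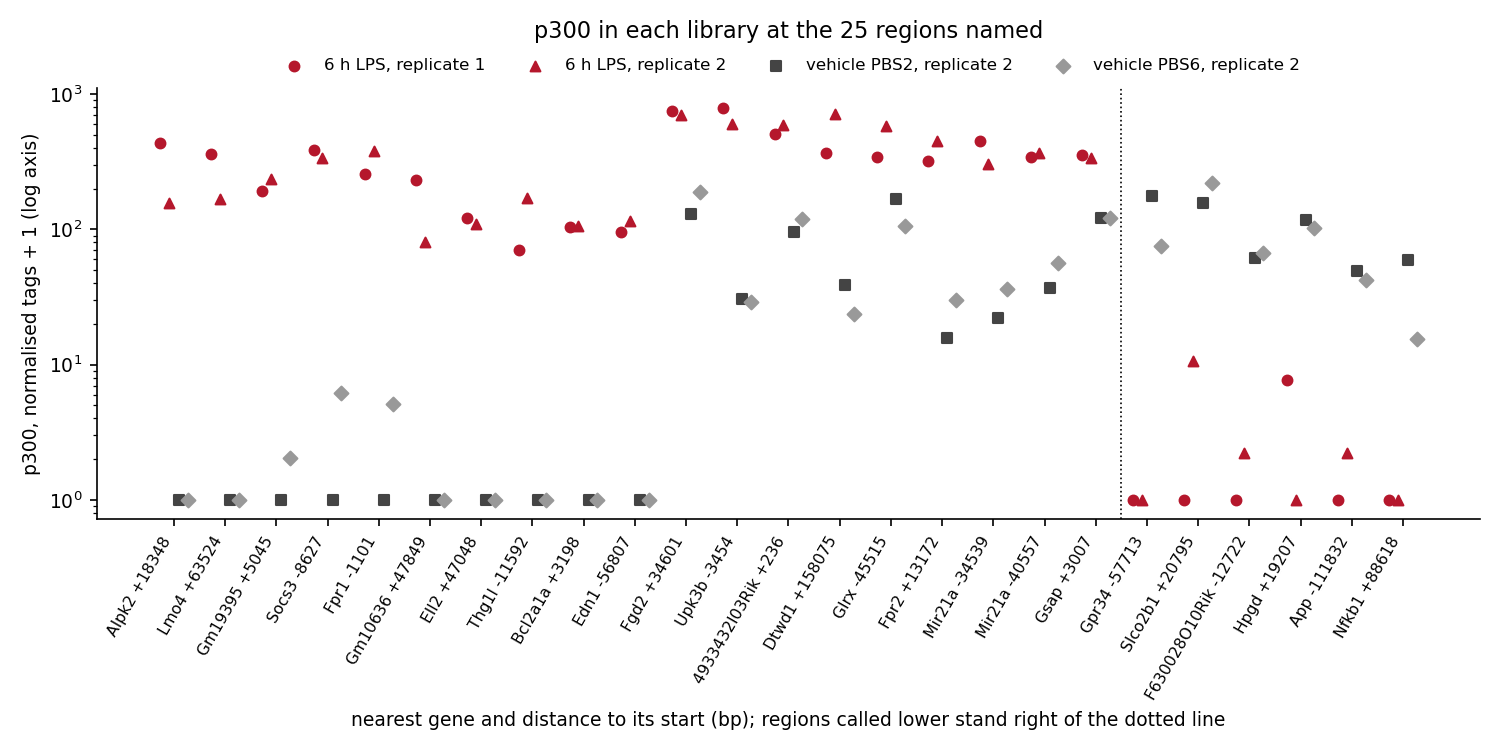
Normalised p300 tags + 1 (log axis) in each LPS and vehicle library at the 25 regions named, by nearest gene and distance to its start in bp; red circles and triangles are LPS replicates 1 and 2, grey squares and diamonds are PBS2 and PBS6. The 19 regions left of the dotted line were called higher and the 6 right of it lower. All were chosen among regions whose LPS and vehicle libraries do not overlap, so the figure shows no overlap by selection. Over all regions tested, both LPS libraries lay above vehicle in 25.9% and below in 22.5%.

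Of the 10 regions called higher with the greatest LPS mean, all but the Socs3 region had tags in both vehicle libraries. The intergenic region 34601 bp from the start of Fgd2, an exchange factor for the GTPase CDC42, had 751 and 706 normalised tags after LPS, against 128 in PBS2 and 189 in PBS6, a log2 change of 2.22 ± 0.44 (SE; limma, adjusted p = 0.012). Refitted by limma with LPS replicate 1, LPS replicate 2 or PBS2 left out, Fgd2 had adjusted p = 0.104, 0.082 and 0.22. The region 3454 bp upstream of the uroplakin gene Upk3b had 791 and 604 normalised tags after LPS, against 29.4 in PBS2 and 27.9 in PBS6, a log2 change of 4.55 ± 0.68 (SE; limma, adjusted p = 0.00171). The region 158075 bp from Dtwd1, with Atp8b4 as a closer neighbour at 10657 bp, had 369 and 708 normalised tags after LPS, against 37.8 in PBS2 and 22.7 in PBS6 (log2 change 4.08; limma, adjusted p = 0.000413).

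Both Mir21a regions lie in an intron of Vmp1, the gene upstream of and overlapping the primary transcript of the microRNA miR-21, which is induced in inflammation. The nearer one, 34539 bp upstream of the microRNA, averaged 376 ± 104 normalised tags after LPS and 28.1 ± 9.97 in vehicle (SD, n = 2 each), a log2 change of 3.71 ± 0.46 (SE; limma, adjusted p = 0.000441). The farther one, 40557 bp upstream, had 344 and 366 normalised tags after LPS, against 35.7 in PBS2 and 55.8 in PBS6, a log2 change of 2.96 ± 0.43 (SE; limma, adjusted p = 0.00142). The vehicle libraries were thus low but not empty at both.

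The region in 4933432I03Rik, a non-coding gene, lies 13345 bp from Acod1, whose product makes the antimicrobial metabolite itaconate. It had 503 and 592 normalised tags after LPS, against 94.5 in PBS2 and 118 in PBS6, a log2 change of 2.36 ± 0.40 (SE; limma, adjusted p = 0.00454). With LPS replicate 2 or PBS2 left out, limma gave it adjusted p = 0.0604 and 0.1005. Calls were weakest at Glrx, a glutaredoxin gene, with 342 and 578 normalised tags after LPS against 168 and 104 in PBS2 and PBS6 (adjusted p = 0.0469, limma), and at Gsap, the gamma-secretase activating protein gene, with 351 and 336 against 119.8 and 121 (adjusted p = 0.0454, limma). Leaving out any 1 of the 4 libraries ended both calls, with adjusted p of 0.0972 to 0.279 for Glrx and 0.178 to 0.316 for Gsap by limma.

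The greatest losses were at regions that the LPS libraries left with few or no tags. The region in an intron of Slco2b1, an organic anion transporter gene, had 0 and 9.70 normalised tags after LPS, against 155 in PBS2 and 219 in PBS6, and its log2 change was -5.83 ± 0.93 (SE; limma, adjusted p = 0.00293). The region in an intron of Hpgd, which encodes the enzyme that inactivates prostaglandins, had 6.71 and 0 normalised tags after LPS, against 116 in PBS2 and 101 in PBS6, with a log2 change of -5.30 (limma, adjusted p = 0.00693). Vehicle was 44.9 times LPS there, with a 95% counting interval of 15.1 to 220.1. With LPS replicate 2 or PBS2 left out, limma gave Hpgd adjusted p = 0.08 and 0.0871.

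The region upstream of F630028O10Rik, a non-coding gene, lies 15513 bp from the gene of miR-223, a microRNA of myeloid cells, and 19897 bp from Vsig4, a complement receptor of resident macrophages. It had 0 and 1.21 normalised tags after LPS, against 60.9 in PBS2 and 66.1 in PBS6, a log2 change of -5.44 ± 0.77 (SE; limma, adjusted p = 0.00124). The region nearest Gpr34, a lysophosphatidylserine receptor, lies in an intron of Cask and had no tag after LPS, against 174 and 74.3 normalised tags in PBS2 and PBS6. It was at least 45.5-fold lower after LPS (limma, adjusted p = 0.00398), and the call was lost without PBS2 (0.0785).

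The 2 weakest losses named were those at App and Nfkb1. The region 111832 bp from App, the amyloid precursor protein gene, had 0 and 1.21 normalised tags after LPS and 48.3 and 41.3 in PBS2 and PBS6 (limma, adjusted p = 0.0339). Leaving out any 1 of the 4 libraries ended its call (adjusted p from 0.0822 to 0.242, limma). The lower region of Nfkb1, in an intron, had no tag after LPS, and 58.8 and 14.5 normalised tags in PBS2 and PBS6, at least 12.3-fold lower (limma, adjusted p = 0.00843). With PBS2 or LPS replicate 1 left out, limma gave it adjusted p = 0.1885 and 0.0526.

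The regions that gained p300 lay mostly far from promoters. Of the 1138 higher regions, 3.43% lay in promoters by the authors' annotation, as did 9.77% of the 256 lower regions and 20.5% of all regions tested. Shares over 10 kb from the nearest start were 69.2% of the higher, 66.8% of the lower and 52.8% of all regions, and the median distance was 22108.5 bp, 19026 bp and 11673 bp in the same order. Median GC content was 46.3% in the higher regions, 48.3% in the lower and 49.8% in all.

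The letters of the NF-kB motif were in 24.1% of the higher regions, 11.3% of the lower and 11.3% of all regions tested. AP-1 letters were in 353 of the 1138 higher regions, in 15.2% of the lower and in 20.9% of all. C/EBP letters were in 19.1%, 12.1% and 12.1%, and IRF letters in 12.1%, 10.5% and 8.46%. STAT letters differed less, at 7.91%, 7.42% and 6.20%. The PU.1 letters, which mark the lineage factor of macrophage enhancers, were in 5.89% of the higher regions, 8.98% of the lower and 10.0% of all. CREB/ATF letters were in 0.439% of the higher regions, 0% of the lower and 0.971% of all, and none of these differences in share was tested.

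Overlap with the authors' peak lists covered most of the lower regions. The lists are of LXR, a nuclear receptor activated by oxysterols, of SREBP, a factor of sterol and fatty acid synthesis, and of p300 in cells given the LXR agonist GW3965. Peaks of the LXR list met 78.9% of the lower regions, 21.2% of the higher and 38.7% of all regions tested by at least 1 bp. For the SREBP list these shares were 73.4%, 28.2% and 36.0%, and for the p300 list 86.3%, 55.3% and 53.7%. All 6 named lower regions met a peak of each of the 3 lists. The level in the input library moved with these classes, with a median of 4 tags in the higher regions, 12 in the lower and 8 in all. So did p300 in vehicle. Its medians in PBS2 and PBS6 were 77.7 and 69.2 normalised tags in the lower regions, 2.10 and 4.13 in the higher and 14.7 and 15.5 in all. A fall can be called only where vehicle held tags, so the classes differ in this level by selection. The part of either level in the overlaps was not tested.

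**Figure D3:**
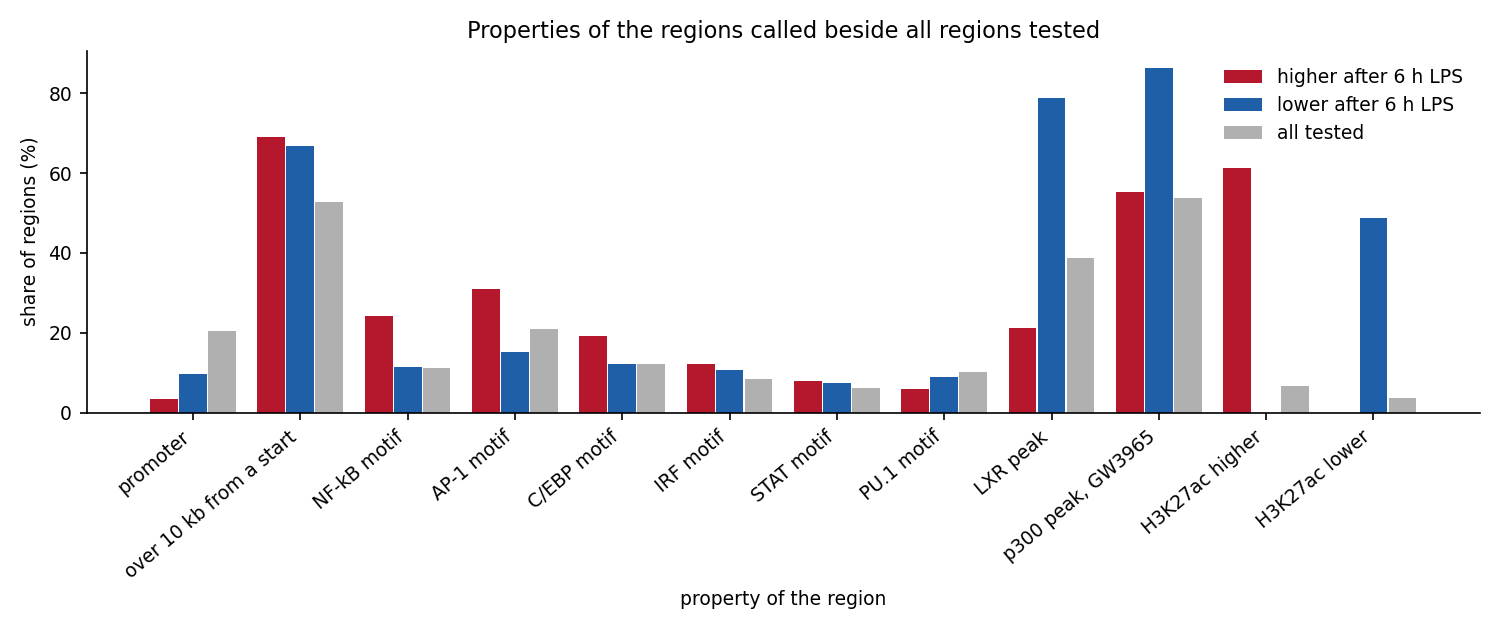
Share of regions (%) with each property, for the 1138 regions called higher after LPS (red), the 256 called lower (blue) and all 52527 tested (grey), counted per region with no error bar. NF-kB, AP-1 and C/EBP letters and H3K27ac gains stand out in red, and LXR and p300 peaks and H3K27ac losses in blue.

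H3K27ac, measured in separate libraries over windows of 1000 bp around the same centres, moved the same way at most of these regions. Among all 72992 regions tested for H3K27ac after 6 h LPS against 4 vehicle libraries, 5.1% were called higher and 3.43% lower by limma, 6224 regions in all, which became 2722, 1260 and 4034 with LPS replicate 1, LPS replicate 2 or PBS2 replicate 2 left out. Of the 1129 regions higher in p300 that could be tested for H3K27ac, 61.4% were called higher and 0% lower in H3K27ac, against 6.62% and 3.76% of the 51008 regions tested for both. Of the 255 lower regions, 48.6% were called lower and 0% higher. The median log2 change in H3K27ac was 2.45 at the higher regions, -1.47 at the lower and 0.03 at all, and it was above 0 at 98.6%, 1.96% and 51.5% of them. With the replicate block, 86.4% of the higher regions were called higher and 82.4% of the lower regions called lower in H3K27ac, against 17.0% and 13.6% of all regions tested for both.

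At the Socs3 region H3K27ac was 252 and 312 normalised tags after LPS, and it was between 2.64 and 13.9 in the 4 vehicle libraries (log2 change 5.52; limma, adjusted p = 0.000428). At Fpr1 it was 274 and 300.1 after LPS, against 1.01 to 6.43 in vehicle (log2 change 6.17; limma, adjusted p = 0.000131). At Slco2b1 it was 24.1 and 31.2 after LPS, against 248 to 476 in vehicle (log2 change -3.72; limma, adjusted p = 0.000156). The groups did not overlap at these 3 examples, and how often that held over all regions tested for H3K27ac is not given here. The regions near Gm19395 and App did not pass the test for H3K27ac (limma, adjusted p = 0.208 and 0.108), with log2 changes of 3.50 and -2.14, and both passed with the replicate block (limma, adjusted p = 2.14e-05 and 0.00507).

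The regions called at 6 h were also high or low in the libraries of 2 h LPS. The median over the 1138 higher regions was 65.6 and 56.7 normalised tags in replicates 1 and 2 at 2 h of LPS, 58.1 and 55.8 at 6 h, and 2.10 and 4.13 in PBS2 and PBS6. Over the 256 lower regions it was 17.4 and 14.2 at 2 h, 8.94 and 9.70 at 6 h, and 77.7 and 69.2 in PBS2 and PBS6. The medians of all regions tested lay between 14.7 and 17.0 in the 14 libraries. No region passed the test of 6 h against 2 h LPS by limma (0.0%) or by edgeR, and 2854 had an unadjusted p under 0.05 by limma. With the replicate block 29 regions (0.0552%) were higher and 48 (0.0914%) lower at 6 h than at 2 h. Since the regions were chosen on the 6 h LPS and the vehicle libraries, the levels at 2 h and in the other groups are a description.

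The named regions give both patterns at 2 h, and a comparison of 2 h with vehicle would share the vehicle libraries. At the Slco2b1 region the LPS libraries had 17.4 and 1.42 normalised tags at 2 h and 0 and 9.70 at 6 h. At the F630028O10Rik region they had 9.37 and 7.09 at 2 h and 0 and 1.21 at 6 h. At the Socs3 region they had 923 and 466 at 2 h and 382 and 335 at 6 h, and at Fpr1 103 and 296 at 2 h and 257 and 378 at 6 h. None of the 25 named regions differed between 6 h and 2 h, with adjusted p of 0.866 or more by limma.

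In cells given 3'-sialyllactose (3'SL), a milk oligosaccharide, together with LPS for 6 h, the 1138 higher regions had medians of 51.8 and 35.2 normalised tags, against the same vehicle libraries at 2.10 and 4.13. Cells given 3'SL without LPS had medians of 11.1 and 8.10 at 2 h and 10.5 and 7.25 at 6 h there, above the vehicle medians. Over the 256 lower regions the medians were 17.9 and 19.3 with 3'SL and LPS at 6 h, and between 45.7 and 72.3 in the 4 libraries of 3'SL alone. The vehicle libraries also served to choose both sets of regions. A difference of 3'SL alone from vehicle there therefore cannot be read as an effect of 3'SL. These groups were not compared by a test here.

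**Figure D4:**
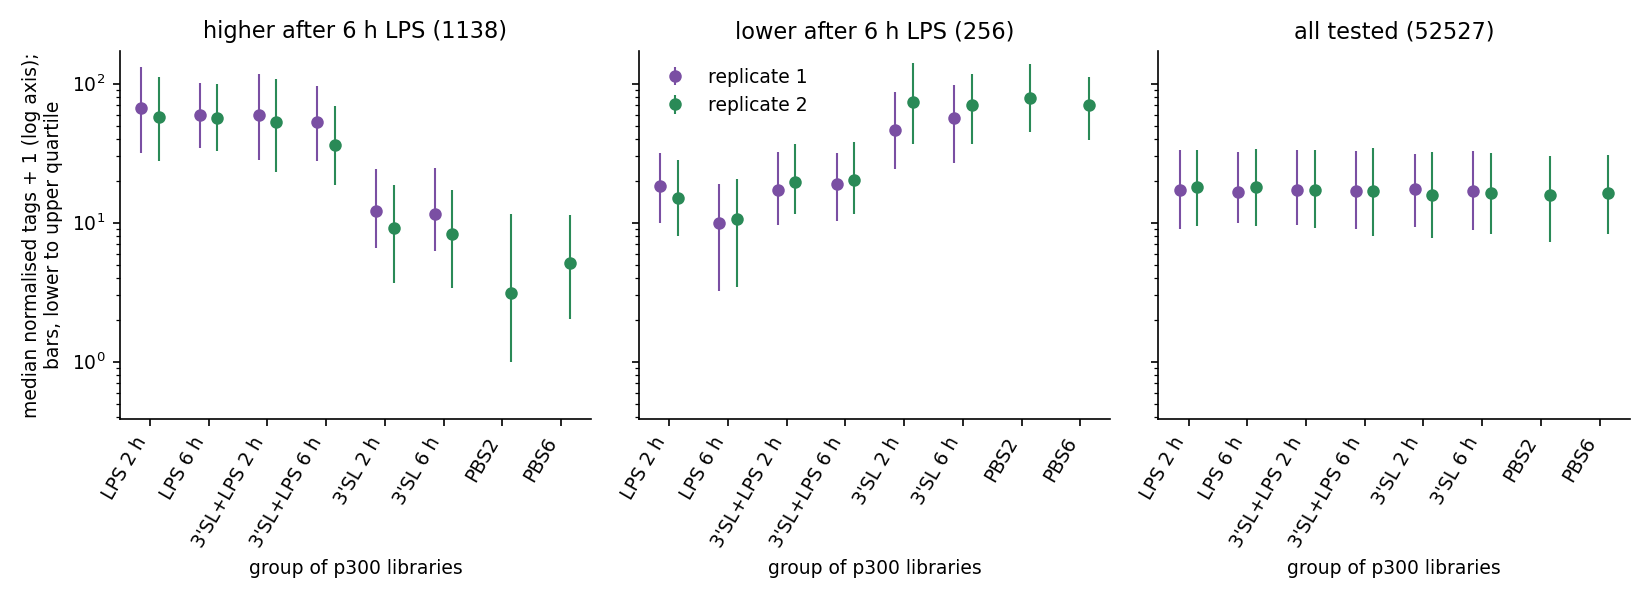
Median normalised p300 tags + 1 (log axis) in each of the 14 libraries, with bars over the lower to upper quartile of regions, for the 1138 regions called higher after 6 h LPS, the 256 called lower and all 52527 tested; purple is replicate 1 and green replicate 2. The 4 groups with LPS are high in the left panel and low in the middle one, the groups without LPS lie the other way, and all medians of the right panel lie between 14.7 and 17.0.

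For genes, p300 was summed over all regions within 100 kb of the start of the gene the authors named as nearest. Of 14985 genes tested, 202 (1.35%) were called higher and 40 (0.267%) lower by limma, and with the replicate block 797 (5.32%) were higher and 350 (2.34%) lower, all 242 calls among them. The median log2 change of all genes was 0.03, and 7699 of them (51.4%) were above 0. With LPS replicate 1, LPS replicate 2, PBS2 or PBS6 left out, there were 63, 55, 22 and 124 calls. On the authors' scaling 1 gene was called.

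Genes of inflammatory cytokines and enzymes had the most calls of the 10 lists. Of 19 members tested of the 20 listed, 7 were called higher and none lower, and 12 were higher with the replicate block. Their median log2 change was 1.59, and all 19 were above 0. Il1a, the gene of interleukin-1 alpha, had 476 and 480.3 normalised tags in LPS replicates 1 and 2, against 84.0 in PBS2 and 75.4 in PBS6, a log2 change of 2.57 ± 0.33 (SE; limma, adjusted p = 0.0019). Nos2, the inducible nitric oxide synthase gene, had 483 and 308 normalised tags after LPS, against 44.1 and 42.3 in PBS2 and PBS6, a log2 change of 3.13 ± 0.48 (SE; limma, adjusted p = 0.00363). Of their regions tested, 5 of 6 were called higher for Il1a and 4 of 5 for Nos2, and none lower.

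The other 5 called were Il12a, which encodes the p35 subunit of interleukin-12, the cytokine subunit gene Il27, the interleukin-1 receptor antagonist gene Il1rn, Acod1 and Edn1, with log2 changes of 2.33, 2.53, 2.35, 2.77 and 1.76 (limma, adjusted p = 0.00339, 0.0189, 0.0247, 0.0151 and 0.034). Il1a kept its call without any 1 of the 4 libraries, while Nos2 lost it without PBS2 (limma, adjusted p = 0.061) or LPS replicate 1 (0.0589). Il12a lost its call in the same 2 refits (0.0789 and 0.0513) and Il27 in all but that without PBS6 (0.09 to 0.317). The calls of Il1rn, Acod1 and Edn1 ended with any 1 library left out, with adjusted p of 0.0589 to 0.205, 0.0743 to 0.182 and 0.0545 to 0.328 by limma. Without LPS replicate 1, LPS replicate 2, PBS2 or PBS6, 1, 3, 1 and 4 members were called.

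Several of the best known LPS genes did not pass as sums, although 2 of 6 Il1b regions, 1 of 3 Tnf regions and 1 of 15 Il10 regions were called higher. Il1b had 691 and 594 normalised tags after LPS, against 239.5 in PBS2 and 313 in PBS6, with a log2 change of 1.22 (limma, adjusted p = 0.163, and 0.00655 with the replicate block). Il6 had a log2 change of 0.98 (limma, adjusted p = 0.202, and 0.00646 with the block). Tnf, the tumour necrosis factor gene, had 230.3 and 178 normalised tags after LPS, against 139 and 158 in PBS2 and PBS6, and did not pass in either fit (log2 change 0.45; limma, adjusted p = 0.728, block 0.959). The LPS libraries were higher than vehicle in all 3, but on the authors' scaling Il6 and Tnf had log2 changes of -0.14 and -0.67. Il10, an anti-inflammatory cytokine gene, had a log2 change of 1.17 (limma, adjusted p = 0.0751, block 0.00186), and Il12b 0.88 (0.271, block 0.154; -0.23 on the authors' scaling). Ptgs2, which encodes cyclooxygenase-2, had 1 region of 2.24 and 25.5 normalised tags after LPS and 0 and 2.06 in vehicle.

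Of 14 chemokine genes tested of the 15 listed, 3 were called higher, 6 with the block, and none lower; the median log2 change was 0.90, and 13 were above 0. Cxcl10, the interferon-inducible ligand of CXCR3, had 210.1 and 113 normalised tags after LPS, against 8.40 in PBS2 and 16.5 in PBS6, a log2 change of 3.59 ± 0.54 (SE; limma, adjusted p = 0.00338). Ccl5 had 785 and 367 after LPS, against 50.4 and 87.8 in PBS2 and PBS6, a log2 change of 2.99 (limma, adjusted p = 0.0217). Ccl4 had 644 and 570.0 after LPS, against 176 and 225, a log2 change of 1.60 (limma, adjusted p = 0.00804). Cxcl10 lost its call without PBS2 (limma, adjusted p = 0.0851) or LPS replicate 1 (0.0589), and Ccl4 without either of these (0.186 and 0.0883) or LPS replicate 2 (0.0602). Ccl5 lost it with any 1 library left out (limma, adjusted p of 0.0509 to 0.302).

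Of 20 genes of NF-kB subunits and feedback inhibitors, 2 were called higher, 6 with the block, and none lower; the median log2 change was 0.82, and 18 were above 0. Both called genes encode inhibitors. Socs3 had 1686 and 1580.3 normalised tags after LPS, against 252 in PBS2 and 350.0 in PBS6, a log2 change of 2.45 ± 0.32 (SE; limma, adjusted p = 0.0019), with 7 of its 16 regions called higher. Tnfaip3 had 1710.2 and 2122 after LPS, against 422 and 377 in PBS2 and PBS6, a log2 change of 2.25 ± 0.34 (SE; limma, adjusted p = 0.00322), with 8 of its 29 regions called higher. Without PBS2 neither passed (limma, adjusted p = 0.0598 and 0.0606), nor Tnfaip3 without LPS replicate 2 (0.0575). The inhibitor gene Nfkbia had 823 and 951 after LPS, against 439 and 406 in vehicle, and a log2 change of 1.07 (limma, adjusted p = 0.0626, block 0.00165; -0.056 on the authors' scaling).

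Of 25 interferon response genes, 3 were called higher, 9 with the block, and none lower; the median log2 change was 1.17, and 23 were above 0. Gbp5, a guanylate-binding protein gene, had 532 and 232 normalised tags after LPS, against 35.7 in PBS2 and 42.3 in PBS6 (log2 change 3.14; limma, adjusted p = 0.0111), and 5 of its 8 regions were called higher. Rsad2, the gene of the antiviral protein viperin, had 456 and 307 after LPS, against 48.3 and 73.3 (log2 change 2.63; limma, adjusted p = 0.0357). Zbp1, a sensor of nucleic acids, had 71.5 and 71.6 after LPS, against 12.6 and 22.7 (log2 change 2.01; limma, adjusted p = 0.0447). In all 3 the LPS libraries lay above both vehicle libraries. The calls of Rsad2 and Zbp1 ended with any 1 library left out (limma, adjusted p of 0.0969 to 0.369 and 0.0736 to 0.446), and Gbp5 passed only without LPS replicate 2, with 0.157, 0.0578 and 0.133 without PBS2, PBS6 and LPS replicate 1. edgeR called 1 of the 25.

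Over all genes tested 1.35% were called higher and 0.267% lower, and 5.32% and 2.34% with the replicate block. A single call or none in a short list therefore says little about it. Of 12 AP-1 and ATF genes tested of 13 listed, 1 was called higher and the median log2 change was -0.09. With the block 1 was higher and 1 lower, Fosb (log2 change -1.12, adjusted p = 0.169 by limma and 0.0382 with the block). The gene called higher, Batf, which encodes a partner of JUN proteins, had 369 and 467 normalised tags after LPS, against 128 in PBS2 and 137 in PBS6 (log2 change 1.64; limma, adjusted p = 0.0151). Of 18 macrophage lineage factors none passed, with a median of 0.10; with the block Cebpa, a factor of myeloid differentiation, was lower (log2 change -1.36; limma, adjusted p = 0.123, block 0.0262). Of 22 surface and lysosome genes 1 was called higher, the scavenger receptor gene Marco, with 139 and 181 normalised tags after LPS against 31.5 and 39.2 in vehicle (log2 change 2.14; limma, adjusted p = 0.0288), and the median was 0.03. With the block 2 were higher, Marco and Msr1 (Msr1 had a log2 change of -0.026 on the authors' scaling), and 3 lower, the mannose receptor gene Mrc1, Mertk and Lgals3 (limma, adjusted p = 0.0254, 0.0345 and 0.0237). Of 15 genes of LXR and cholesterol efflux none passed, and the median was -0.01. With the block 1 was higher, Scd2, and 1 lower, Arl4c (limma, adjusted p = 0.0473 and 0.0474), and Scd2 had a log2 change of -0.14 on the authors' scaling. The cholesterol exporter gene Abca1 had 809 and 1168 after LPS, against 1092 and 1276 (log2 change -0.28; limma, adjusted p = 0.750), although 2 of its 15 regions were called lower.

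Of 10 genes of co-stimulation and antigen presentation 1 was called higher, Cd274, which encodes the inhibitory ligand PD-L1, and the median log2 change was 0.64. With the block 4 were higher, Cd274, Cd86, H2-Ab1 and Cd40, in a fit that called 5.32% of all genes higher and 2.34% lower. Cd274 had 402 and 387 normalised tags after LPS, against 109 in PBS2 and 123 in PBS6 (log2 change 1.76; limma, adjusted p = 0.0367). The calls at Marco, Batf and Cd274 ended with any 1 of the 4 libraries left out, with adjusted p of 0.0961 to 0.304, 0.0639 to 0.213 and 0.125 to 0.33 by limma. None of 13 housekeeping genes tested of 14 listed passed, with a median of 0.01. With 1.35% of all genes called higher and 0.267% lower, this says little about so short a list. Gapdh and Pgk1 were called higher with the block alone, and at Gapdh LPS replicate 1 had 139 and replicate 2 621 normalised tags, against 134 and 133 in vehicle.

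**Figure D5:**
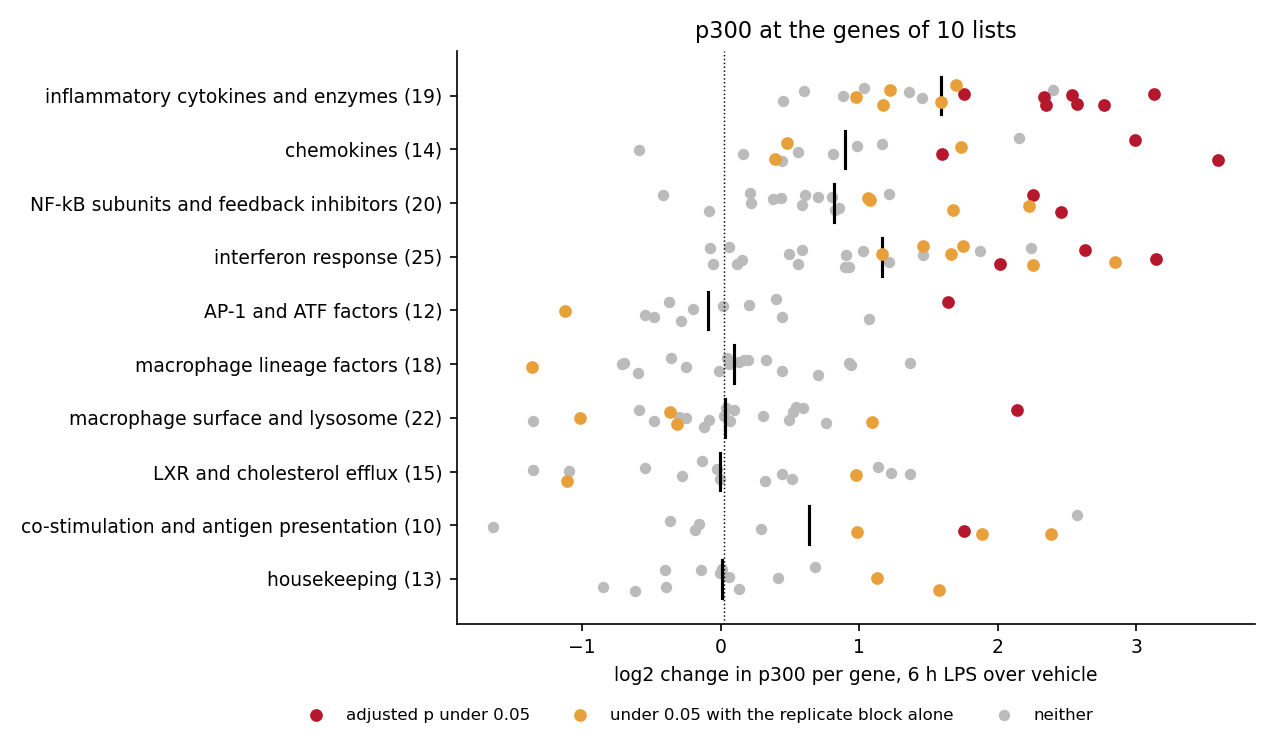
Log2 change in summed p300 per gene, 6 h LPS over vehicle, for each tested member of 10 lists (members tested in brackets); red points passed an adjusted p under 0.05, orange points passed with the replicate block alone, and the short black lines are list medians. The inflammatory list has the highest median, 1.59, and the dotted line marks the median of all genes tested, 0.03.

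St6gal1, which encodes the sialyltransferase that adds alpha-2,6-linked sialic acid to glycoproteins, was called lower. It had 288 and 233 normalised tags after LPS, against 1406 in PBS2 and 1552 in PBS6, a log2 change of -2.51 ± 0.53 (SE; limma, adjusted p = 0.0288). Of its 12 regions tested, 2 were called lower and 1 lay above 0. The LPS libraries were far below both vehicle libraries, and the call ended with any 1 of the 4 libraries left out (limma, adjusted p of 0.133 to 0.231). Cx3cr1, the fractalkine receptor gene, had 262 and 332 after LPS, against 452 and 291 in PBS2 and PBS6, and its groups overlapped (log2 change -0.30; limma, adjusted p = 0.763).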

How the data were processed

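The authors deposited tags per window as a normalised signal, HOMER tag counts of 14 p300 libraries (200 bp) and 16 H3K27ac libraries (1000 bp) scaled to 10000000 tags a library on mm10, per the file headers; Bowtie2, HOMER and DESeq2 are named in the submitters' processing notes. Whole tags were recovered for 100% of windows (within 0.05). From the signal, values were rescaled by tags in regions times TMM factors, taken as log2(value + 1), filtered with edgeR's filterByExpr and fitted with limma 3.58.1 (trended empirical Bayes, group means over all libraries of the mark, 7 residual degrees of freedom for p300 and 9 for H3K27ac), with p-values adjusted by Benjamini-Hochberg over all regions or genes and a threshold of 0.05. The fit was also run on simulated tags without a replicate effect, so that run says nothing of how replicates affect the calls. Alternatives were edgeR 4.0.16 and DESeq2 1.42.0 on recovered tags, a replicate block, other scalings, filters and pseudocounts, and each library left out.

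Same-numbered replicates deviated together, with correlations of residuals from 0.218 to 0.429 over pairs of groups. Only the fits with the replicate block take them as paired by number. The main fit had no block, so its p-values do not use this pairing. Named regions were the 10 called higher with the greatest log2 change, the 10 called higher with the greatest LPS mean and the 6 called lower with the greatest fall, without overlap of libraries. Where lists met, 25 remained. Named genes were the members of each list that were called, up to 4 of each list with the smallest p, and 20 chosen whatever their values; a gene or region named otherwise is said to be so. The members and lists were chosen with earlier results of these data known. The p65 peak list was left out because 3.63% of its 41220 peaks met an open region, against 85.4% of LXR, 75.0% of SREBP and 72.2% of p300 peaks. For windows the authors place under 1000 bp from a start, the distance was recomputed from the RefSeq GRCm38.p6 start of the gene named. In 92.6% of those compared, it differed from the authors' distance by at most 1000 bp. There were 10 per-sample columns of no matched sample, which were not used.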

Additional observations from a re-analysis of the deposited data

How the results depend on the processing

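The count of p300 regions called, 1394, was 3848 with the replicate block, 3663 by edgeR with the replicate block, 743 by edgeR, 2 on the authors' scaling and 670 over the authors' merged transcription factor regions; without 1 library it lay between 306 and 827. It stayed within 1.5 times under the other alternatives, with 1697 by DESeq2. The count of genes, 242, was 1147 with the replicate block, 1124 by edgeR with the block, 822 with only the 4 libraries in the fit, 438 by DESeq2, 1 on the authors' scaling and 13 for regions within 1 kb of the start; without 1 library it lay between 22 and 124. The test of 6 h against 2 h called 0, and 77 with the replicate block and 0 without any 1 of its libraries. The count for H3K27ac, 6224, was 19062 with the replicate block, and between 1260 and 5855 without 1 library. On the authors' scaling the log2 changes of Nfkbia (-0.056), Batf2 (-0.042), Junb (-0.68), Msr1 (-0.026), Scd2 (-0.14), Il6 (-0.14), Tnf (-0.67) and Il12b (-0.23) reversed. The causes were not tested, and some of these fits held fewer libraries or other numbers of regions. The shallowest library, PBS2, limits what can be told from an empty window.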
